A study of Mus musculus with 6 samples.

Results

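Matrix metalloproteinases and their tissue inhibitors were followed as 10 named genes in mouse liver. The 7 proteases were Mmp2, Mmp9, Mmp12, Mmp13, Mmp14, Mmp15 and Mmp19, and the 3 inhibitors were Timp1, Timp2 and Timp3. They were taken by symbol from a gene table of 21362 genes, of which 18453 had at least 1 count. All 10 passed the filter on low counts and were tested among 13431 genes.

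The 6 libraries came from whole livers of male Mettl14f/f mice, in which both Mettl14 alleles were floxed. All mice were fed HFD (high-fat diet) from 8 weeks of age and were injected with vector after 10 weeks of the diet. A group of 3 received AAV8-TBG-Cre and a control group of 3 received AAV8-TBG-GFP, and RNA was prepared a further 8 weeks later. The TBG promoter drives Cre or GFP in hepatocytes, so the floxed alleles of other liver cells are not targeted, and both groups carried the same alleles and a vector. The comparison asks which liver transcripts differ when Mettl14, a subunit of the writer of m6A on mRNA, is targeted in hepatocytes. Labels give no litter or cage, so the p-values measure the spread between these samples.

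Matrix metalloproteinases are zinc enzymes that cut collagens, elastin, laminins and other proteins of the extracellular matrix. Most are made as inactive proenzymes, which plasmin, furin or another metalloproteinase opens. TIMPs bind the active site and block it, and in injured liver both proteases and TIMPs come largely from stellate cells, portal fibroblasts, macrophages and duct cells, with hepatocytes adding some of them. Turnover of scar matrix depends on the balance between them, which mRNA levels do not measure.

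The libraries held between 20356440 and 21010508 counts. Mettl14, the targeted gene, was at 6.30, 6.43 and 5.81 CPM (counts scaled to library size by TMM) with AAV8-TBG-GFP and at 4.96, 5.38 and 4.86 CPM with AAV8-TBG-Cre. In CPM every value with Cre lay below every value with GFP, as held for 1745 of the 13431 genes tested. In FPKM (fragments scaled by transcript length and library size) the groups overlapped, at 2.31, 2.31 and 2.01 against 1.92, 2.40 and 1.82, with Cre replicate 2 the highest of the 6. The log2 difference of -0.29 (SE 0.15) did not pass the test (edgeR adjusted p = 0.337), so the direction of each comparison rests on the vector labels. AAV8-TBG-Cre replicate 2 stood farthest out on the first principal component, which held 54.1% of the variance, and it gave the highest CPM of 7 of the 10 genes. Calls that were lost without it are named beside the results. In whole liver, fewer cells of a type and less RNA per cell cannot be told apart.

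With Cre, 4 of the 10 genes rose: Mmp2 (a gelatinase) and Mmp12 (the macrophage elastase) among the proteases, and Timp1 and Timp2 among the inhibitors. Mmp2 was 4.64-fold, Mmp12 4.14-fold, Timp1 4.49-fold and Timp2 2.20-fold higher. The other 6 were not called in either direction. A call here means a difference of 1.2-fold or more with an unadjusted edgeR quasi-likelihood p under 0.05, the threshold of the study. At this threshold 12.0% of all genes tested were higher and 8.41% were lower. No member passed a Benjamini-Hochberg adjusted p of 0.05, which 0.484% of all genes passed in the upward direction, although 4 had an unadjusted p under 0.05. DESeq2 called 4 members after adjustment, where it called 4.81% of all genes with an adjusted p higher. For the same 4 genes every liver with Cre lay above every liver with GFP, as held for 14.0% of all genes. The median log2 difference over the 10 was 0.93, beside -0.01 over all genes tested. The 10 were chosen with earlier results of these data known, so the shares and medians set beside all genes are a description. With 3 livers a group an exact two-sided permutation test cannot go below 0.1, the value that each of these 4 reached.

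**Figure D1:**
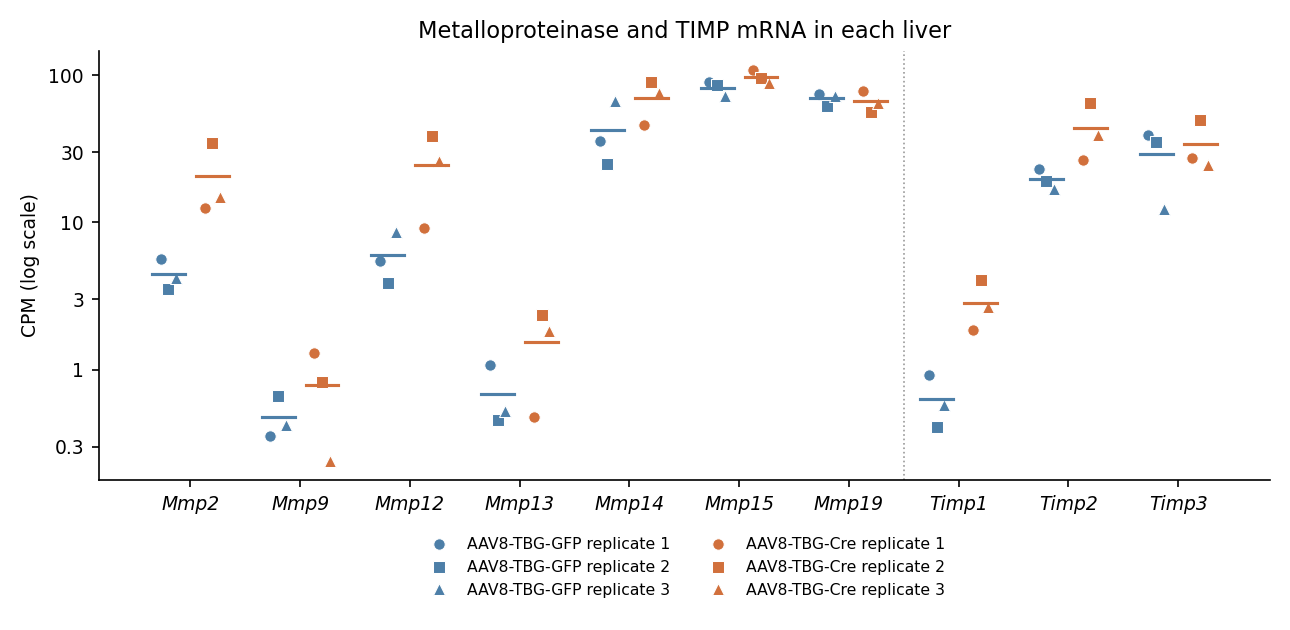
CPM on a log axis of the 7 metalloproteinases (left of the dotted line) and 3 TIMPs (right) in each liver, blue for AAV8-TBG-GFP and orange for AAV8-TBG-Cre, with marker shape for the replicate number and a bar at the mean of 3. The orange points of Mmp2, Mmp12, Timp1 and Timp2 all lie above the blue points, and those of the other 6 genes overlap them.

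Markers of other liver cell types differed between the vectors as well. Of 9 macrophage and Kupffer cell markers, 8 rose, and their summed FPKM was 107 to 124 with GFP and 201 to 420 with Cre. All 6 cholangiocyte markers rose, from a sum of 29.3 to 66.5 FPKM to a sum of 171 to 417 FPKM. Most of this sum was Spp1, at 25.42 to 60.47 FPKM with GFP and 152.47 to 378.18 FPKM with Cre. Of 9 stellate cell and fibroblast markers, 5 rose, namely Pdgfra, Pdgfrb, Rgs5, Ngfr and Lox. Lrat, Reln, Des and Acta2 were not called, with log2 values of -0.25, -0.10, 0.13 and -0.37. The sum over all 9 was 13.1 to 22.1 FPKM against 21.1 to 48.4 FPKM. Of 7 endothelial markers none rose and Stab2 fell, and the sums overlapped at 35.7 to 63.5 and 42.0 to 56.5 FPKM. Without AAV8-TBG-Cre replicate 2, 6 of the macrophage, 6 of the cholangiocyte and 3 of the stellate and fibroblast markers were called higher. Adgre1, Gpnmb, Rgs5 and Ngfr were then not called, and the highest sums with Cre were 205, 226 and 23.1 FPKM. None of the markers in these lists was at 0 in any library. Their part in the protease and TIMP results was not tested.

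The hepatocyte sum overlapped between groups, at 47200 to 55800 FPKM with GFP and 49600 to 52500 FPKM with Cre. Among 6 markers Cps1 was called higher and Ttr lower, and without AAV8-TBG-Cre replicate 2 Ttr (log2 value -0.49) was not called. Neutrophil markers were scarce. Of 7 only 3 could be tested, S100a8 and S100a9 rose and Ly6g fell, and 3 were at 0 in at least 1 library, with a summed FPKM of 8.04 to 8.91 against 12.4 to 17.5. The sums over 7 T and NK cell markers were 1.19 to 2.29 and 1.64 to 4.02 FPKM, and over 4 B cell markers 0.85 to 0.94 and 1.13 to 3.09 FPKM, with Cd79a called higher and Nkg7 not called. The most abundant marker of each list was Lyz2 for macrophages (39.0 ± 6.24 FPKM against 130.0 ± 80.8, SD, n = 3 per group) and Spp1 for cholangiocytes (44.3 ± 17.7 against 248.0 ± 117.0). Rgs5 led the stellate list (5.58 ± 1.48 against 11.8 ± 6.95), Clec4g the endothelial list (28.6 ± 9.90 against 26.7 ± 4.10) and Alb the hepatocyte list (32100 ± 3460 against 31500 ± 686). Of the scarcer cells, Ly6g led the neutrophils (5.63 ± 0.553 against 4.43 ± 0.696), Nkg7 the T and NK cells (0.510 ± 0.201 against 1.04 ± 0.480) and Cd79a the B cells (0.417 ± 0.0681 against 1.08 ± 0.425).

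Mmp2, or gelatinase A, cuts denatured collagen and type IV collagen and is a product of stellate cells and fibroblasts. It lies on chromosome 8 (GRCm38, 92827290 to 92853421). Its level was 5.69, 3.52 and 4.19 CPM with GFP and 12.6, 34.5 and 14.9 CPM with Cre, or 4.47 ± 1.11 against 20.7 ± 12.1 (SD, n = 3 per group). The lowest liver with Cre held more Mmp2 than the highest with GFP, and replicate 2 held 2.51 times the mean of the other two. Between the vectors the log2 fold change was 2.21 (SE 0.41, 95% interval 1.26 to 3.16, adjusted p = 0.0552 by edgeR), and without AAV8-TBG-Cre replicate 2 it was 1.62. Counts behind these values ran from 69 to 841.

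Mmp9, or gelatinase B, is known from neutrophils, macrophages and Kupffer cells. It lies on chromosome 2 (164940326 to 164955850). The gene had only 5 to 27 counts a library, at 0.356, 0.663 and 0.419 CPM with GFP and 1.29, 0.821 and 0.241 CPM with Cre. The livers with Cre included both the highest and the lowest value, and the groups overlapped. The 95% interval of its log2 fold change of 0.70 ran from -0.69 to 2.09 and was not called. The 2 gelatinases differed in level, with mean FPKM of 7.34 for Mmp2 and 0.260 for Mmp9 in the livers with Cre.

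Mmp12, the macrophage metalloelastase, cuts elastin. It lies on chromosome 9 (7344397 to 7360461), and its level was 5.44, 3.88 and 8.59 CPM with GFP and 9.11, 38.9 and 26.0 CPM with Cre. The gap between groups was narrow at its edge, since Cre replicate 1 at 9.11 CPM was close to GFP replicate 3 at 8.59 CPM, while the other livers with Cre were well above. Mmp12 had a log2 fold change of 2.05 (SE 0.52, 95% interval 0.85 to 3.25, adjusted p = 0.0881 by edgeR). Without AAV8-TBG-Cre replicate 2 it was 1.56. Expected counts were split over 3 Mmp12 transcripts, and NM_008605 took 100%, 100% and 93.7% of them with Cre but 84.5%, 0% and 82.7% with GFP. With 76 counts in GFP replicate 2, all given to NM_001320076, the split is an estimate on few fragments, and only the gene sum was tested.

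Against the macrophage markers, Mmp12 FPKM came to 1.17%, 0.870% and 2.02% of their sum with GFP and to 1.24%, 2.99% and 3.52% with Cre. Cre replicate 1 lay inside the range with GFP, and the other livers with Cre were above it. Cd68, a lysosomal glycoprotein of macrophages, gave Mmp12 ratios of 0.150, 0.114 and 0.199 with GFP and of 0.171, 0.292 and 0.359 with Cre.

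Mmp13 is the main interstitial collagenase of rodents and is the member nearest to Mmp12, on the same chromosome at 7272514 to 7283333. It was at 1.07, 0.459 and 0.523 CPM with GFP and 0.477, 2.34 and 1.83 CPM with Cre. Cre replicate 1 sat with the controls, and the other livers with Cre were above all of them. A log2 fold change of 1.18 (95% interval -0.23 to 2.59, adjusted p = 0.315 by edgeR) rested on 9 to 57 counts a library. Without Cre replicate 1 it was 1.60 and passed the unadjusted threshold, and without Cre replicate 2 it was 0.74.

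Both genes belong to a run of 10 Mmp genes within 427072 bases of chromosome 9. Of this run Mmp12, Mmp7, Mmp8 and Mmp27 had higher CPM in every liver with Cre than in any with GFP, while Mmp13 overlapped. Among all genes tested 14.0% had this separation, and Mmp8, with 1 to 24 counts, was too low to be tested. Mmp27 was separated by as little as 0.716 against 0.712 CPM. Mmp1a, Mmp1b, Mmp10 and Mmp20 had no count in any library and Mmp3 had counts in 3. The RefSeq promoter table (GRCm38.p6, 250 bases before to 50 bases after each start) held 7 of the 10 members, with 8 starts. It was searched on both strands for TGANTCA, the AP-1 motif, which reads the same on either strand, and for TATAAA. The AP-1 motif was in 7.81% of 32851 promoters of this length and TATAAA in 13.6%. Among the 8 member starts, 2 held the AP-1 motif and the same 2 held TATAAA, namely Mmp13 and the second of 2 Mmp12 starts. These 2 are shown because they are neighbours that both hold the motifs, of which Mmp12 was called and Mmp13 was not, and those of Timp1 and Timp2 because these genes rose without either motif in this window. Each runs from 100 bases before the start through the first 20 bases of the transcript, 5′ to 3′ on the strand of the gene, with motif letters in capitals.
Mmp12, chr9:7347274-7347393, plus strand: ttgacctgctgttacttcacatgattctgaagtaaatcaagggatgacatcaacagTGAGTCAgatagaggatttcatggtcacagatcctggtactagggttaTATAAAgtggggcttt
Mmp13, chr9:7272414-7272533, plus strand: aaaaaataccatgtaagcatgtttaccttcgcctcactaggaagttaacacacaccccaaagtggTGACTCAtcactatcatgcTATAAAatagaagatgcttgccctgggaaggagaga
Timp1, chrX:20870066-20870185, plus strand: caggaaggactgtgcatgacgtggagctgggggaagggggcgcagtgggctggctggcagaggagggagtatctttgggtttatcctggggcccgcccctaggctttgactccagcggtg
Timp2, chr11:118355392-118355511, minus strand: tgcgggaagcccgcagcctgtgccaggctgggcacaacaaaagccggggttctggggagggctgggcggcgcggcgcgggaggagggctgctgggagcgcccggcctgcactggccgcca

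In Mmp13 the AP-1 letters begin 35 bases before the listed start, and in Mmp12 they begin 44 bases before it. TATAAA lies before the start in Mmp13 and just after the listed start in Mmp12. A match describes letters, and no binding was measured here. Neither motif was found across the 300 bases listed for Timp1 or Timp2.

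The membrane-type enzymes Mmp14 and Mmp15 sit at the cell surface. Mmp14 (MT1-MMP) activates the Mmp2 proenzyme together with Timp2 and lies on chromosome 14 (54431598 to 54442456). Its level was 35.5, 24.8 and 66.9 CPM with GFP and 46.1, 89.4 and 75.9 CPM with Cre. GFP replicate 3 exceeded Cre replicate 1, so the groups overlapped, and the log2 fold change of 0.73 (SE 0.38, adjusted p = 0.316 by edgeR) was not called. Without GFP replicate 3 it was 1.22 and without Cre replicate 1 it was 0.97, both past the unadjusted threshold, and it was 0.46 without GFP replicate 2 and 0.52 without Cre replicate 2.

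Mmp15 (MT2-MMP) lies on chromosome 8 (95352296 to 95374293). It was at 90.0, 85.3 and 71.7 CPM with GFP and 108, 95.7 and 88.3 CPM with Cre. Cre replicate 3 lay just under GFP replicate 1. The log2 fold change was 0.24 (SE 0.13, 95% interval -0.06 to 0.55, adjusted p = 0.336 by edgeR). In FPKM the livers with Cre lay above those with GFP, at 19.91 to 25.70 against 14.91 to 19.82, and limma on log2(FPKM + 1) gave 0.39 with an unadjusted p of 0.0291. On that scale the median of all genes was itself 0.112.

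Mmp19, a protease of basement membrane proteins, lies on chromosome 10 (128790910 to 128800827). It was at 74.6, 61.8 and 72.1 CPM with GFP and 78.5, 56.3 and 64.5 CPM with Cre. The groups overlapped throughout, and Cre replicate 2, which was highest for 7 other members, was lowest for Mmp19. The log2 fold change was -0.07 (95% interval -0.40 to 0.27, adjusted p = 0.837 by edgeR), and it was 0.09 on log2(FPKM + 1), below the median of all genes there. Its upper bound of 0.27 is under the lower bounds of Mmp2 (1.26), Mmp12 (0.85), Timp1 (1.18) and Timp2 (0.43).

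Timp1, an inhibitor induced in liver injury and made by stellate cells, macrophages and hepatocytes, lies on chromosome X (20870166 to 20874737). It was at 0.915, 0.408 and 0.576 CPM with GFP and 1.86, 4.07 and 2.65 CPM with Cre, or 0.633 ± 0.258 against 2.86 ± 1.12 (SD, n = 3 per group). Each liver with Cre was well above the highest with GFP. Its log2 fold change was 2.17 (SE 0.42, 95% interval 1.18 to 3.15, adjusted p = 0.0595 by edgeR) and 1.82 without AAV8-TBG-Cre replicate 2. Counts were low, at 8 to 18 with GFP and 39 to 99 with Cre.

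The deposited counts of Timp1 were divided between 2 transcripts of 905 and 902 bases. NM_011593 took all of them with GFP, at 18, 8 and 11, and 23.62, 29.22 and 19.08 with Cre. NM_001044384 was listed at 0 with GFP and at 15.38, 69.78 and 35.92 with Cre. A fragment can fit both, so this division is an estimate and was not tested. Timp1 also lies inside Syn1, a synapsin gene, and strand use in counting was not given in the sources used here. Syn1 had 7 to 23 counts a library, with overlapping groups.

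Timp2 blocks Mmp2 and is also needed for its activation by Mmp14. It lies on chromosome 11 (118301061 to 118355411), and its level was 23.2, 19.2 and 17.0 CPM with GFP and 26.5, 64.5 and 39.5 CPM with Cre. Cre replicate 1 exceeded GFP replicate 1 by little, and the other livers with Cre were well above. Timp2 had a log2 fold change of 1.14 (SE 0.30, 95% interval 0.43 to 1.84, adjusted p = 0.0981 by edgeR). Without AAV8-TBG-Cre replicate 2 it was 0.73, still past the unadjusted threshold.

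Timp3, which binds the matrix itself, lies on chromosome 10 (86300412 to 86349505). It was at 39.1, 35.4 and 12.4 CPM with GFP and 27.6, 49.8 and 24.5 CPM with Cre. GFP replicate 3 was the lowest of all 6 livers and the groups overlapped. The log2 fold change of 0.23 (95% interval -0.77 to 1.23, adjusted p = 0.802 by edgeR) turned to -0.14 without GFP replicate 3 and to -0.16 without Cre replicate 2. The endothelial marker sum was lowest in the same GFP replicate 3, at 35.7 FPKM, and Timp3 came to 12.6%, 11.3% and 6.70% of that sum with GFP and to 11.3%, 21.9% and 12.2% with Cre. Timp3 lies inside Syn3, which had 46 to 64 counts and was not called (log2 value -0.44). Syn3 was at 3.15, 3.26 and 3.14 CPM with GFP and at 2.20, 2.55 and 2.31 CPM with Cre, without overlap. In FPKM its groups overlapped, and without Cre replicate 2 it was called lower at -0.50. The 3 TIMPs thus had log2 changes of 2.17, 1.14 and 0.23.

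**Figure D2:**
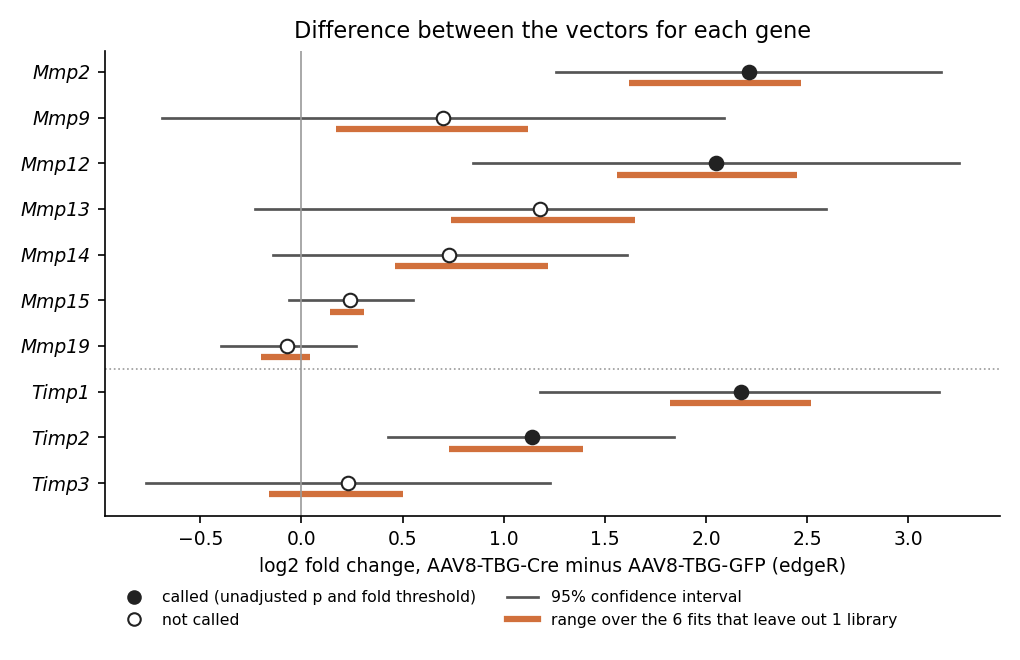
Log2 fold changes (edgeR) of the 10 genes (circles, filled where called), with 95% confidence intervals (grey) and the range over the 6 fits that each leave out 1 library (orange). The intervals of Mmp2, Mmp12, Timp1 and Timp2 and their orange ranges stay above 0, and the orange ranges of Mmp19 (-0.20 to 0.04) and Timp3 (-0.16 to 0.50) cross it.

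Per transcript length, the order of the genes in the control livers was led by genes that were not called between the vectors. Mean FPKM with GFP was 19.6 for Mmp19, 17.7 for Mmp15 and 10.3 for Mmp14, then 5.82 for Timp3 and 5.10 for Timp2. Each of these overlapped its neighbour in the order. Below a gap came Mmp12 at 1.54 and Mmp2 at 1.36, which overlapped, then Timp1 at 0.680 by itself, and Mmp13 at 0.240 and Mmp9 at 0.143. With Cre, Mmp15 (23.6), Mmp19 (21.0) and Mmp14 (19.7) still led and overlapped. Timp2 (12.9), Timp3 (7.81), Mmp12 (7.40), Mmp2 (7.34) and Timp1 (3.51) each overlapped the next, and Mmp13 (0.623) and Mmp9 (0.260) stayed separate below them.

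The make-up of the protease mRNA differed accordingly. The 7 proteases summed to 54.0, 44.6 and 54.2 FPKM with GFP and 68.7, 100 and 71.1 FPKM with Cre. Mmp19 and Mmp15 together made up 76.6%, 80.8% and 63.8% of this sum with GFP and 71.6%, 45.5% and 54.9% with Cre, so these shares overlapped. The share of Mmp2 did not overlap, at 3.28%, 2.42% and 2.27% against 6.03%, 13.1% and 6.69%. Mmp2 per Mmp14, the substrate proenzyme against its activator, was 0.198, 0.176 and 0.0774 with GFP and 0.338, 0.478 and 0.243 with Cre. Mmp2 per Timp2 was 0.290, 0.217 and 0.291 with GFP and 0.562, 0.634 and 0.448 with Cre. Both ratios were higher in each liver with Cre, and they follow from the unequal changes already given.

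The 3 TIMPs added up to 15.1, 12.5 and 7.21 FPKM with GFP and 15.4, 38.5 and 18.7 FPKM with Cre, with Cre replicate 1 barely above the highest control. Timp1 made up 6.63%, 3.51% and 8.32% of the TIMP sum with GFP and 13.9%, 14.0% and 15.8% with Cre, without overlap. TIMP mRNA per protease mRNA was 0.280, 0.281 and 0.133 with GFP and 0.225, 0.385 and 0.263 with Cre. In FPKM both sums were higher in every liver with Cre, but their ratios overlapped. In CPM, Timp1, Timp2 and Timp3 were at 0.915, 23.2 and 39.1 in GFP replicate 1. They were at 1.86, 26.5 and 27.6 CPM in Cre replicate 1, so the higher TIMP sum of that liver held in FPKM only.

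**Figure D3:**
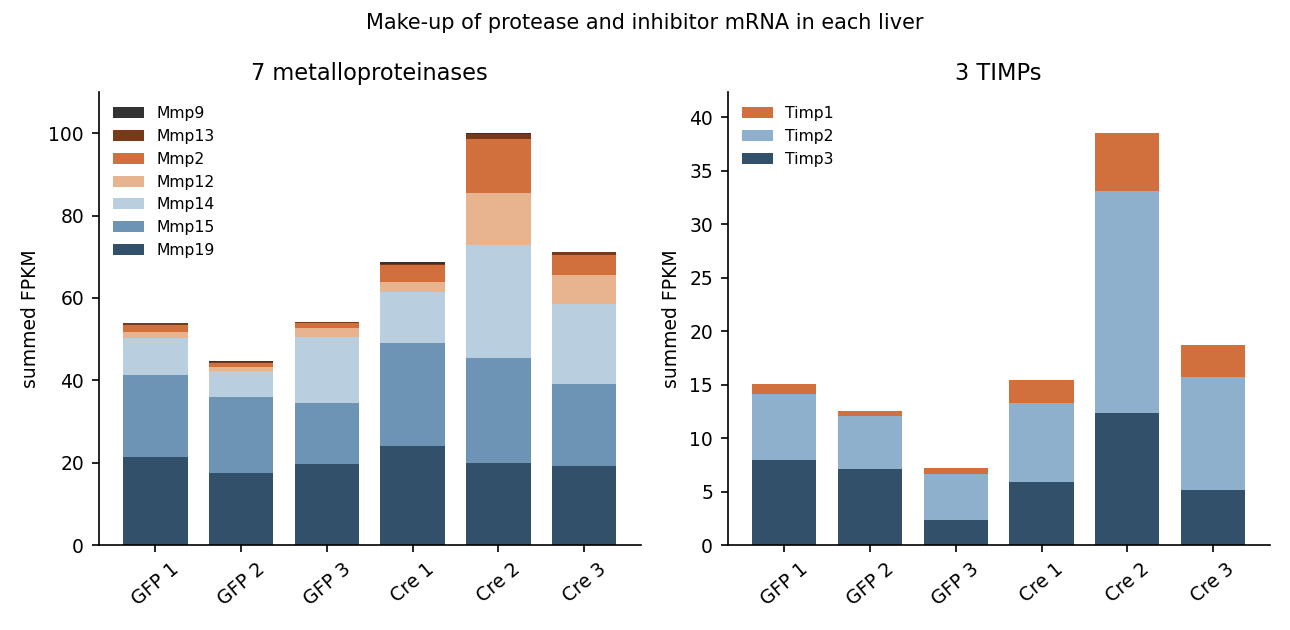
Stacked FPKM of the 7 metalloproteinases (left) and the 3 TIMPs (right) in each of 6 livers, with bars from 0 and colours for genes. The protease bars reach 44.6 to 54.2 FPKM with GFP and 68.7 to 100 FPKM with Cre, where the Mmp2 and Mmp12 segments are wider, and Cre replicate 2 has the tallest bar in both panels.

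Mmp2, Timp1 and Timp2 were also set against markers of stellate cells and fibroblasts, which are known to make them. Mmp2 came to 8.01%, 5.11% and 9.40% of the summed stellate and fibroblast FPKM with GFP and 19.6%, 27.1% and 20.6% with Cre, without overlap. Timp1 came to 4.53%, 2.08% and 4.58% against 10.2%, 11.2% and 12.8%, also without overlap. Timp2 was closer, at 27.7%, 23.6% and 32.2% against 34.9%, 42.8% and 46.0%. Per Pdgfrb, a receptor of stellate cells and pericytes, Timp2 overlapped (2.54, 2.47 and 2.67 against 2.07, 2.86 and 3.15) and Mmp2 did not (0.734, 0.535 and 0.778 against 1.16, 1.81 and 1.41). Per Col1a1, a chain of type I collagen, Mmp2 was at 0.272, 0.435 and 0.307 with GFP and 0.293, 0.345 and 0.323 with Cre, and Timp1 at 0.154, 0.177 and 0.150 against 0.152, 0.142 and 0.201. Both ratios to Col1a1 overlapped between the groups. These denominators were chosen after the values were seen.

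Of the 16 other metalloproteinase genes, 6 could be tested and 1, Mmp7, rose. Mmp7 (matrilysin, an enzyme of duct epithelium) had 13, 1 and 4 counts with GFP and 67, 148 and 54 with Cre. Its log2 fold change of 3.66 (SE 0.66, adjusted p = 0.0549 by edgeR) was the largest of any metalloproteinase tested, and the cholangiocyte markers rose in the same livers. Mmp11, Mmp23 and Mmp27 were at or below 2.07 FPKM in every library and had log2 values of 0.69, 0.76 and 0.82 that were not called. Mmp8, the neutrophil collagenase, was too low to test, with 3, 1 and 1 counts against 7, 24 and 11. Mmp24 was also untested, with 0, 0 and 1 counts against 5, 19 and 10. Over all 27 Mmp and Timp genes listed, 16 were tested, 5 rose and none fell, with a median log2 value of 0.75.

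Of 5 other inhibitors, 3 could be tested, none rose and 1 fell. Timp4 had at most 1 count a library. Reck, a membrane-anchored inhibitor, and Pzp, a plasma alpha-macroglobulin that hepatocytes secrete, had log2 values of -0.15 and -0.06 and were not called. Tfpi2, a Kunitz inhibitor that also acts on metalloproteinases, fell from 40.7, 34.9 and 33.7 CPM to 31.5, 21.7 and 24.1 CPM (log2 fold change -0.50, adjusted p = 0.138 by edgeR). In CPM it was below the controls in every liver with Cre, a separation that held for 1745 of the 13431 genes tested. In FPKM the groups overlapped, at 25.92, 21.88 and 20.27 with GFP and 21.24, 16.86 and 15.74 with Cre.

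Of 8 genes that activate proenzymes or control plasmin, 2 rose and 1 fell. Plat, the tissue plasminogen activator, went from 1.12, 0.561 and 0.890 CPM to 2.72, 10.7 and 4.09 CPM (log2 fold change 2.77, adjusted p = 0.0619 by edgeR). Without AAV8-TBG-Cre replicate 2 its log2 value was 1.98. Plaur, the urokinase receptor, had a log2 fold change of 1.08, and of 0.57 without that library, where it was not called. Pcsk6, a furin-like convertase, fell from 231, 243 and 247 CPM to 150, 140 and 151 CPM, a log2 fold change of -0.71 (SE 0.11, adjusted p = 0.0396 by edgeR) with little spread in either group. Furin itself was at -0.23 and was not called. Among 7 docking, clearance and induction partners Cd44, a cell surface dock of Mmp9, and Cd63, a partner of Timp1, rose by 1.38 and 1.82 on the log2 scale. Lrp1, which clears protease complexes, and Bsg, an inducer, had values of -0.24 and 0.03 and were not called.

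The related ADAM and ADAMTS proteases included 9 of 18 that rose and 1 that fell. Adamts5, which cuts proteoglycans, rose from 2.08, 1.89 and 1.57 CPM to 4.87, 8.26 and 5.15 CPM (log2 fold change 1.72, SE 0.27, adjusted p = 0.0414 by edgeR). Adam8 (2.67), Adamts12 (2.50), Adamts9 (1.67), Adam12 (1.58), Adamts2 (1.04), Adam19 (0.93), Adam15 (0.76) and Adamts10 (0.58) also rose in log2 value. Adam9 fell by 0.30 on the log2 scale. Adam8 was at 1.71 without AAV8-TBG-Cre replicate 2, and Adam12, Adam19 (0.76) and Adamts10 (0.29) were then not called.

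Of 15 matrix substrates tested, 11 were called higher and none lower, and 13 had a log2 value above 0. Fn1 (fibronectin) was not called at -0.39 (adjusted p = 0.263 by edgeR). In CPM it lay below the controls in every liver with Cre, as did 1745 of the 13431 genes tested. Its level was 2610, 2610 and 3050 CPM with GFP and 2350, 1950 and 2020 CPM with Cre. Eln (elastin), the substrate of Mmp12, rose from 3.71, 1.79 and 3.14 CPM to 24.1, 83.8 and 29.5 CPM (log2 fold change 3.99, SE 0.55, adjusted p = 0.0343 by edgeR). The interstitial collagen chains Col1a1, Col1a2 and Col3a1 rose by 2.15, 1.88 and 2.09 in log2 value, and the basement membrane chains Col4a1 and Col4a2 by 0.98 and 1.01. Col6a1 (1.00), Tnc (1.72), Bgn (0.80), Lamc1 (0.49) and Hspg2 (0.49) completed the 11. Without AAV8-TBG-Cre replicate 2, Eln was at 3.21, and Col6a1 (0.49), Tnc (1.17), Bgn (0.43) and Hspg2 (0.26) were not called. Of the 34 pathway genes called, 23 were called in the same direction without that library, and Pcsk6, Adamts5 and Eln were the 3 that passed the adjusted threshold.

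Of the genes upstream of these proteases, 6 of 16 tested rose and none fell. Tgfb2 and Tgfb3, growth factors that induce matrix genes, rose by 2.28 and 2.23 in log2 value, while Tgfb1 at 0.25 was not called. The transcription factors Runx2 (1.25), Ets2 (0.54), Sp1 (0.33) and Nfkb1 (0.32) rose. Ets2 (0.31), Nfkb1 (0.25) and Runx2 (0.94) were not called without AAV8-TBG-Cre replicate 2. Fos and Jun, whose products bind the AP-1 motif, had log2 values of -0.63 and -0.24 with overlapping groups. They were called lower at -1.36 and -0.86 without that library. Junb (0.48), Jund (0.02) and Fosl2 (0.04), of the same families, were not called with or without it. Il1b was at 0.09 and was not called. The cytokine genes Tnf, Osm and Il6 were too low to test. Tnf had 5, 3 and 2 counts with GFP and 11, 26 and 7 with Cre, and Osm had 3, 0 and 1 against 4, 9 and 4. Il6 had 2 counts in GFP replicate 1 and none elsewhere.

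**Figure D4:**
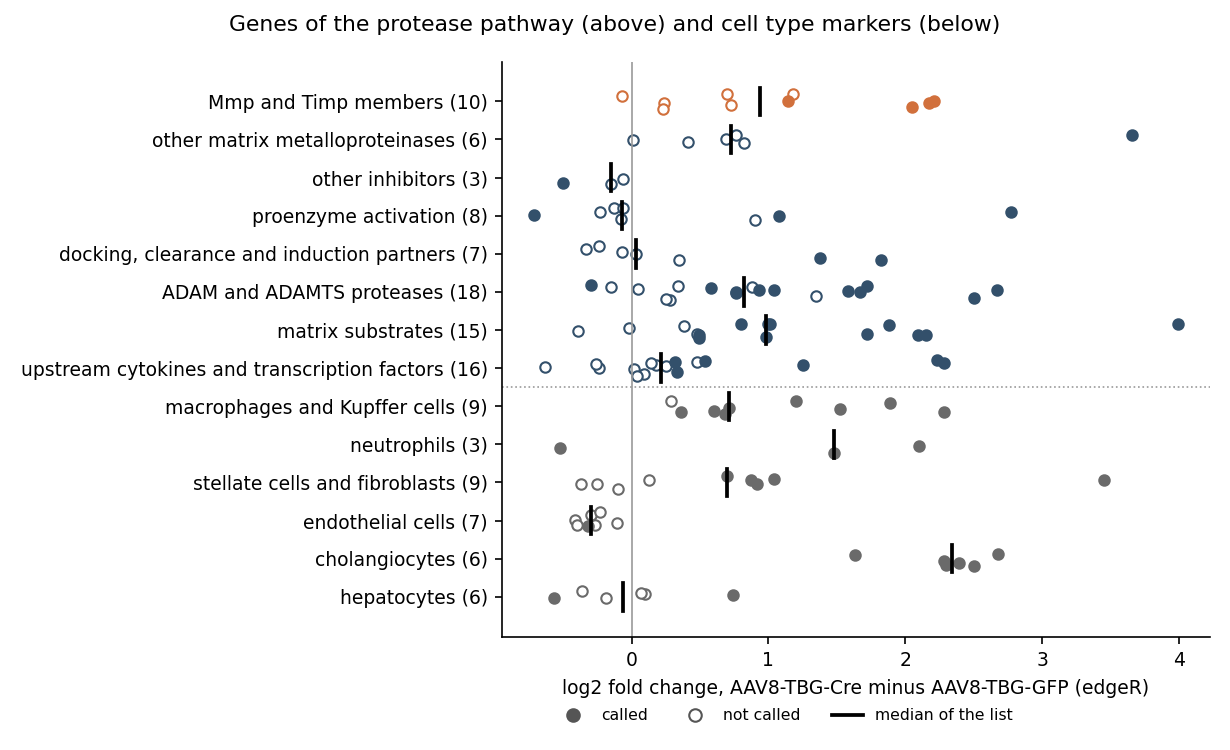
Log2 fold changes (edgeR) of the tested genes in each list, with the number tested in brackets, filled circles for called genes and a black bar at the median, for members and pathway lists above the dotted line and cell type markers below it. Members have a median of 0.93, matrix substrates of 0.98, macrophage markers of 0.71 and cholangiocyte markers of 2.35, and the medians of endothelial (-0.30) and hepatocyte (-0.06) markers lie below 0.

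The genes most like Mmp2 and Timp1 over the 6 libraries were sought by Pearson r of log2 CPM among 11289 genes with a mean of at least 1. For Mmp2 they were Emp1, Bicc1 and Sirpa, each with r = 0.998. For Timp1 they were Tspan8 (0.996), Palm (0.994) and Lamc3 (0.993). All 6 genes ranked the libraries exactly as the member did (rho of 1), and r stayed at or above 0.991 without the farthest libraries, AAV8-TBG-Cre replicate 2 and AAV8-TBG-GFP replicate 2. These genes were picked by r over the same libraries, so the rho and the remaining r are no separate support. The points share the vector difference and the scaling of each library, so these values describe the libraries.

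The form of the library names, which splits the samples into 2 GFP and 1 Cre with short names and 1 GFP and 2 Cre with long ones, also split the ratios. The log2 ratio of Cre to GFP was 1.45 in the short and 2.56 in the long form for Mmp2, 0.97 and 1.92 for Mmp12, 1.49 and 2.54 for Timp1, and 0.32 and 1.62 for Timp2. As every liver with Cre lay above every liver with GFP for these 4, their sign could not differ between forms, and each form held 1 library of 1 vector. Mmp13 (-0.68 and 1.99), Timp3 (-0.43 and 1.58) and Mmp19 (0.20 and -0.26) changed sign between forms. What the form stands for is not given in the sources used here.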

How the data were processed

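Total RNA of 6 livers, 3 per vector, was sequenced on the DNBseq platform. For each liver the authors deposited expected counts by transcript (fragments divided between transcripts by estimate, not normalized) and FPKM per transcript and per gene, which are scaled by transcript length and library and rounded to 2 decimals. The submitters' processing notes name HISAT2, Bowtie2, RSEM and build mm10, and the study's methods name STAR, HTSeq and DESeq2. Versions are not given in the sources used here. Transcripts without a fragment are left out of the files.

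The deposited expected counts, 45.4% of them whole, were added up over the transcripts of each NCBI gene and then rounded. Totals were 20356440 to 21010508, and replicates differed by far more than sampling noise (chi-square per gene of at least 26.5). Vectors were compared by the quasi-likelihood test in edgeR 4.0.16 (R 4.3.3, TMM, filterByExpr, vector as the only factor), with Benjamini-Hochberg adjustment over all genes tested. Counting error adds to the spread of members with few counts. The 95% intervals are those of the fit. All 158 listed symbols matched a gene of the deposited data. Gene coordinates and promoters came from RefSeq tables of GRCm38.p6, the build of mm10.

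The text names every member, every pathway list gene past the unadjusted threshold, other Mmp and Timp genes that reached 0.5 FPKM in any library, Mettl14, the top marker of each cell type and the 3 genes most like Mmp2 and Timp1. Other genes were named after their values were seen. Members and lists were chosen with earlier results of these data known. The steps were tested on simulated counts. Alternatives were DESeq2 1.42.0, RLE normalization, no count filter, at least 10 counts in every library, limma 3.58.1 on log2(FPKM + 1) or log2(FPKM + 0.1) where 3 libraries reached 0.5 FPKM, limma without that filter, a replicate block, the library name form as a covariate, and leaving out each library. No sample was left out of the main test.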

Additional observations from a re-analysis of the deposited data

How the results depend on the processing

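Mmp2, Mmp12, Timp1 and Timp2 kept an unadjusted p under 0.05 in each of the 15, 15, 14 and 15 alternatives that could test them. Since their groups did not overlap, leaving out a library could not turn their direction. Timp1 was not tested with at least 10 counts in every library. The adjusted calls were not as stable. Members passing the adjusted threshold numbered 0 in the main test, 4 with DESeq2 and 2 with no filter on low counts, and ranged from 0 to 4 when 1 library was left out, where the 4 came without AAV8-TBG-Cre replicate 1. Over these alternatives the adjusted p ran from 5.16e-06 to 0.199 for Mmp2, from 0.00095 to 0.257 for Mmp12, from 0.000557 to 0.202 for Timp1 and from 0.0098 to 0.266 for Timp2. The cause was not tested.

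Of all genes, 125 passed the adjusted threshold in the main test, 1157 with DESeq2, 372 with no filter, 76 with at least 10 counts in every library, 22, 27 and 9 in limma on log2(FPKM + 1), on log2(FPKM + 0.1) and without the FPKM filter, 7 with the replicate block, 214 with the library name form, and 0 to 928 when 1 library was left out. The 0 came without AAV8-TBG-GFP replicate 2 or AAV8-TBG-Cre replicate 2, where 2079 and 1899 genes passed the unadjusted threshold. The replicate numbers did not pair the samples (correlations of 0.00915, -0.263 and 0.209), and the block left 4 members called.

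Limma on FPKM shifted the median of all genes by 0.112 to 0.138 with the filter and took the share of higher calls from 58.9% to 83.7%. There Mmp19 turned to 0.09, 0.10 and 0.09, and it ranged from -0.20 to 0.04 when 1 library was left out, with the 0.04 without Cre replicate 2. Timp3 ranged from -0.16 to 0.50 when 1 library was left out, with -0.14 without GFP replicate 3. Mmp14 passed the unadjusted threshold in 6 alternatives, Mmp15 in 4, and Mmp9 (1.12, without Cre replicate 3) and Mmp13 (1.60) in 1 each. Mmp9 rested on 5 to 27 counts a library, and the part of counting error in its spread was not tested.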
